A study of Mus musculus with 8 samples.

Results

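Expression of 10 genes of the lung capillary endothelium was examined in whole lungs of CC-LR mice given the STAT3 inhibitor TTI-101 or left as controls. The 10 genes were chosen by name from the 54532 genes of the count table, with earlier results of these data known. Car4, Ednrb and Apln mark aerocytes, Gpihbp1, Aplnr and Plvap mark general capillary cells, and Kdr, Cdh5, Pecam1 and Vwf are shared by most endothelial cells or mark larger vessels. All 10 genes passed the filter on low counts, which kept 17138 genes. All 8 mice were of the CC-LR genotype, in which Cre recombinase from the club cell secretory protein locus switches on K-ras G12D in the lung epithelium, so no group had lungs free of the mutant allele and the endothelium is not the compartment in which this Cre acts. The control group held 4 mice labelled Control and the treated group 4 mice given TTI-101 for 4 weeks, and all were 14 weeks old with 1 library of poly(A) RNA per mouse. Neither the vehicle of the controls nor the route of the drug is stated for these 8 mice.

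The lung capillary bed is made of intermingled endothelial cell types. Aerocytes are large, thin cells that line the gas exchange surface, while general capillary cells resemble capillary cells of other organs and act as progenitors in repair. Apelin, the ligand encoded by Apln, is made by aerocytes in the lung and signals through the receptor encoded by Aplnr on general capillary cells. The VEGF receptor encoded by Kdr is present on both cell types and at a high level on aerocytes.

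RefSeq promoter sequences on GRCm38.p6, from 250 bases before to 50 bases after the start site, were matched by symbol for 4 of the 10 genes, and these were the 3 aerocyte genes and Kdr. They are shown because they take in the whole set of aerocyte genes and the VEGF receptor gene, and because ETS factors such as ERG and FLI1, which bind a GGAA core, act at endothelial genes. Each is given 5′ to 3′ on the strand of its gene, with every GGAA on either strand (TTCC on the strand shown) in capitals.
Car4 (chr11:84957504-84957803, plus strand): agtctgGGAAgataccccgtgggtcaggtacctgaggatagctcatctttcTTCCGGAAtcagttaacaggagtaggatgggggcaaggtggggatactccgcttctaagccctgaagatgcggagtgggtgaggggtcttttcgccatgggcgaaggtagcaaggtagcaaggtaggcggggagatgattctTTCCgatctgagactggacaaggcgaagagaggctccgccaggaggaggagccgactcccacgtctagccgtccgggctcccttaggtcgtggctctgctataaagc
Ednrb (chr14:103843652-103843951, minus strand): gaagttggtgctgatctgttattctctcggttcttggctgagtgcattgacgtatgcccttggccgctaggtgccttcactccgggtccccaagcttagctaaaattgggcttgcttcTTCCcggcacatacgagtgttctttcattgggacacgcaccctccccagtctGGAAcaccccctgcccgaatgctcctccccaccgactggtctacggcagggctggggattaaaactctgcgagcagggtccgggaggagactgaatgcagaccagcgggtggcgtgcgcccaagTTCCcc
Apln (chrX:48034804-48035103, minus strand): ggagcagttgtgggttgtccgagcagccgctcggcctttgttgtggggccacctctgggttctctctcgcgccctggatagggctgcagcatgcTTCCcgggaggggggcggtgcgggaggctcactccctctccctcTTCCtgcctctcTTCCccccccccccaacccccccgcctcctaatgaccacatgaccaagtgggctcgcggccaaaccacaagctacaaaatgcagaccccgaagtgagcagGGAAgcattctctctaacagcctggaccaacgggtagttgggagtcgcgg
Kdr (chr5:75978406-75978705, minus strand): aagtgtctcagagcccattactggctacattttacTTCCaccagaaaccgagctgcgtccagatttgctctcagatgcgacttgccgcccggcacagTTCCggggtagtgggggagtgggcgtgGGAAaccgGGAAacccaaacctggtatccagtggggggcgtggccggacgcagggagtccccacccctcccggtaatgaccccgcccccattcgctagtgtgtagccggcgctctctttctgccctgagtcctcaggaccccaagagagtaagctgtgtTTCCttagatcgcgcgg
GGAA occurred 4 times in the Car4 promoter, 3 times in that of Ednrb, 4 times in that of Apln and 5 times in that of Kdr, beside a median of 3 over all 32851 promoters of this length, of which 96% held at least 1. The STAT element TTCNNNGAA and the GATA element AGATAA were in 0 of these 4 windows and in 8.3% and 11.2% of all promoters. The start site used for Ednrb lay 701 bases inside the outer edge of the gene as counted, so that window is not the promoter of every Ednrb transcript.

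The libraries held between 16075855 and 26873509 counts, with overlapping ranges in the groups. Control mouse 4 stood apart from the other 7 mice, at 101 on the first principal component (45.2% of the variance) against -39.3 to 17.9, and 5.56% of its counts were mitochondrial against 2.01% to 2.85%. Values without this library are given for each of the 10 genes, the gene lists and the pathway genes. For 8 of the 10 genes the lowest treated value was that of TTI-101-treated mouse 2, as for 32% of all genes tested. Defining genes of lung tissue were present in every library, with the summed level of 8 alveolar type 2 cell genes between 32925 and 75296 CPM. Levels are given as CPM, which are counts scaled to the size of the library with TMM factors. In bulk tissue fewer cells of a type cannot be told apart from less RNA per cell.

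All 10 genes had a higher mean in TTI-101-treated than in control lungs, with fitted fold changes from 1.16 for Aplnr to 1.73 for Cdh5, but by the quasi-likelihood test of edgeR 0 of the 10 genes, and 0 (0%) of all genes tested, had an adjusted p under 0.05. A log2 fold change above 0 was seen in 50.6% of all genes. The median log2 fold change was 0.54 over the 10 genes and 0.00 over all genes. At an unadjusted p of 0.05, Apln, Plvap and Vwf were higher, 3 of 10 genes, where 3.02% of all genes were past this threshold in that direction, 3.58% in the other and 6.61% in either. The same count was 5 of 10 with DESeq2's Wald test (background 2.63%) and 2 of 10 with limma-voom (background 3.53%). The adjusted count was 0 of 10 with each (backgrounds 0.0126% and 0%). The DESeq2 backgrounds are over 31769 genes, since the filter on low counts was not applied there, and are not comparable with those over 17138 genes. The 10 genes were chosen with earlier results of these data known, and 9 of them were lowest in control mouse 4. They are not independent of each other, and their counts beside the shares of all genes are not a test. The treated libraries lay above all control libraries for Vwf alone among the 10, as for 1.53% of all genes, and lay below them for 0 of the 10 genes against 1.43%. When control mouse 4 was left out, the 10 log2 fold changes stayed above 0 (53.3% of all genes), their median was 0.34, and 1 gene, Plvap, passed an unadjusted p of 0.05 (background 1.92%). The count of 3 also depended on other mice, since it was 5 without control mouse 1 or TTI-101-treated mouse 2, 1 without treated mouse 1 or 4, 2 without control mouse 2, and 0 without control mouse 3 or treated mouse 3.

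**Figure D1:**
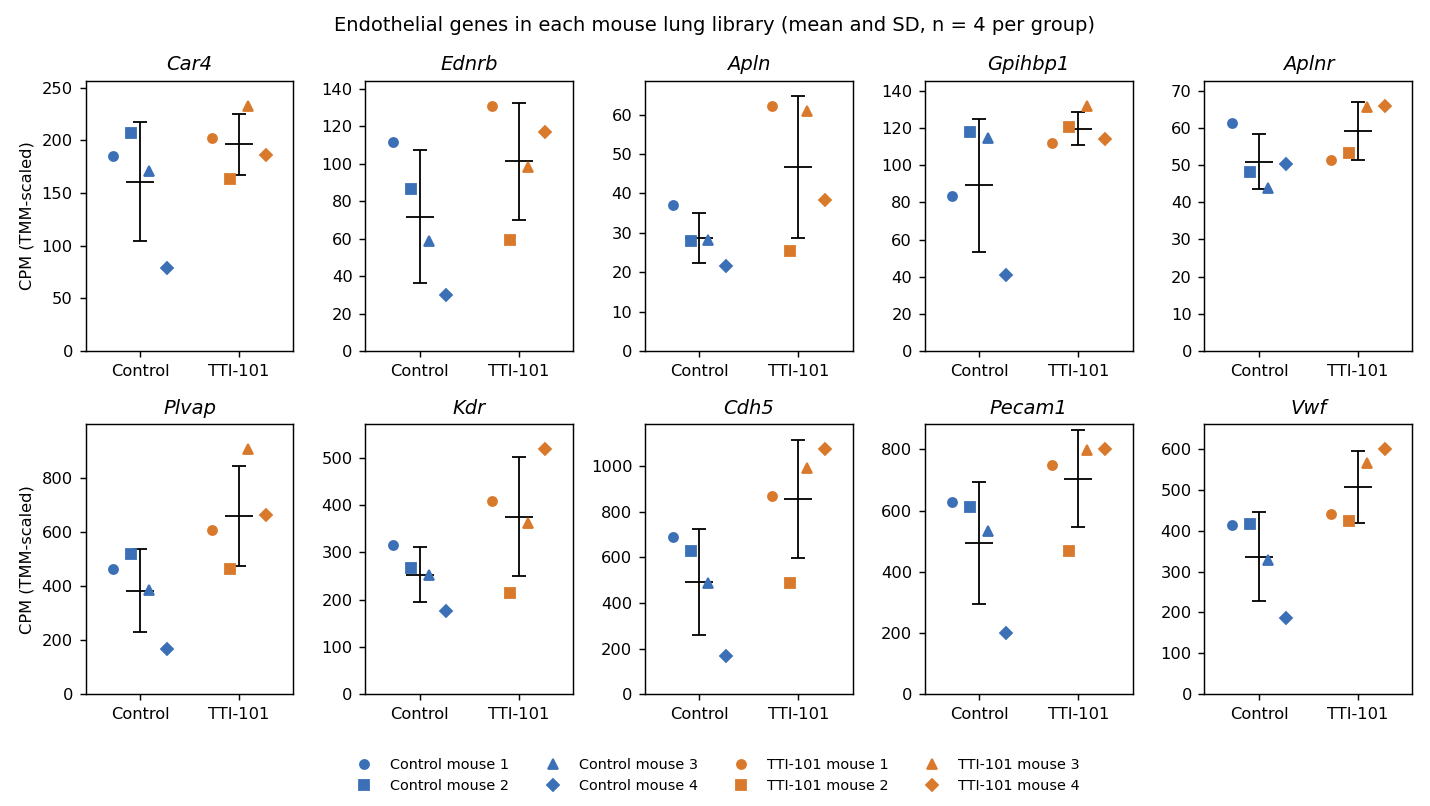
Expression of the 10 endothelial genes in CPM after TMM scaling (vertical axes, starting at 0) in each of 4 control and 4 TTI-101-treated lungs, with 1 symbol per mouse and bars for the mean ± SD. Control mouse 4 (blue diamonds) was the lowest of the 8 mice for 9 of the 10 genes, and the groups were apart only for Vwf.

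Among the aerocyte genes, Car4 (ENSMUSG00000000805, chr11:84957786-84966044, plus strand) encodes a carbonic anhydrase tethered to the cell surface. Its level in control mice 1 to 4 was 186, 207, 171 and 78.7 CPM, and in TTI-101-treated mice 1 to 4 it was 202, 164, 233 and 186 CPM. Apart from control mouse 4, which was far below all others, the groups lay in the same range. The means were 161 ± 56.7 and 196 ± 29.2 CPM (SD, n = 4 each). The log2 fold change was 0.29 (standard error 0.26, 95% interval -0.30 to 0.87, edgeR adjusted p = 0.746), and 0.07 without control mouse 4 (interval -0.28 to 0.42). It was 0.44 without control mouse 2.

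Ednrb (ENSMUSG00000022122, chr14:103814625-103844402, minus strand) encodes the endothelin B receptor. Its level was 112, 86.7, 58.6 and 29.9 CPM in control mice 1 to 4, and 131, 59.1, 98.3 and 117 CPM in treated mice 1 to 4. Both groups were widely spread, and treated mouse 2 lay with control mouse 3. The means of 71.8 ± 35.3 and 101 ± 31.2 CPM (SD, n = 4 each) corresponded to a log2 fold change of 0.50 (standard error 0.37, interval -0.31 to 1.31, edgeR adjusted p = 0.696), or 0.25 without control mouse 4. Leaving out control mouse 1 moved it to 0.80.

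Apln (ENSMUSG00000037010, chrX:48025146-48034853, minus strand), the gene of apelin, had 37.1, 28.0, 28.3 and 21.7 CPM in control mice 1 to 4. In treated mice 1 to 4 it had 62.3, 25.3, 61.0 and 38.4 CPM. Treated mice 1 and 3 were well above every control mouse, treated mouse 4 was just above the highest, and treated mouse 2 was within the control range. The log2 fold change was 0.70 (standard error 0.28, interval 0.08 to 1.32, unadjusted p = 0.0313 and adjusted p = 0.657 from edgeR), from means of 28.8 ± 6.33 and 46.8 ± 18.0 CPM (SD, n = 4 each). By the two-sided exact permutation test over the 70 assignments of 8 mice, p was 0.171. Without control mouse 4 the log2 fold change was 0.60, and it ranged from 0.53 without treated mouse 1 to 0.91 without treated mouse 2.

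Of the general capillary genes, Gpihbp1 (ENSMUSG00000022579, chr15:75596628-75599481, plus strand) encodes the protein that carries lipoprotein lipase to the capillary lumen. It was at 83.6, 118, 115 and 40.8 CPM in control mice 1 to 4 and at 112, 120, 132 and 114 CPM in treated mice 1 to 4. The treated mice were close together, with a coefficient of variation of 7.55%, while the control mice varied by 40.1%. Much of the control spread was control mouse 4, without which the control mean was 105 ± 18.9 CPM (SD). The means were 89.3 ± 35.8 and 120 ± 9.03 CPM (SD, n = 4 each), and the log2 fold change was 0.42 (standard error 0.28, interval -0.19 to 1.04, edgeR adjusted p = 0.673), and 0.19 without control mouse 4.

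Aplnr (ENSMUSG00000044338, chr2:85136225-85139923, plus strand), the apelin receptor gene, was the one gene of the 10 that was not lowest in control mouse 4. Its level was 61.3, 48.2, 43.7 and 50.3 CPM in control mice 1 to 4 and 51.4, 53.3, 65.6 and 66.0 CPM in treated mice 1 to 4. The groups overlapped, and control mouse 4 lay in the middle of its group at 0.985 times the mean of the other controls. The means of 50.9 ± 7.48 and 59.1 ± 7.80 CPM (SD, n = 4 each) differed by a log2 fold change of 0.21 (standard error 0.15, interval -0.12 to 0.55, edgeR adjusted p = 0.689), the smallest of the 10, and by 0.22 without control mouse 4.

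Plvap (ENSMUSG00000034845, chr8:71497765-71511752, minus strand) encodes a protein of the diaphragms that span endothelial fenestrae and caveolae. It was at 464, 519, 387 and 166 CPM in control mice 1 to 4 and at 607, 464, 907 and 664 CPM in treated mice 1 to 4. Treated mice 1, 3 and 4 were above every control mouse, and treated mouse 2 was level with control mouse 1. From means of 384 ± 155 and 660 ± 184 CPM (SD, n = 4 each), the log2 fold change was 0.78 (standard error 0.33, interval 0.05 to 1.51, unadjusted p = 0.038 and adjusted p = 0.657 from edgeR). The exact permutation p was 0.0571 (two-sided). With control mouse 4 left out it was 0.54 (interval 0.04 to 1.05, unadjusted p = 0.0369 and adjusted p = 1 from edgeR). Gtpbp3, on the opposite strand, overlaps this gene and had 5.65% as many counts.

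Kdr (ENSMUSG00000062960, chr5:75932827-75978458, minus strand), the main VEGF receptor gene of endothelial cells, was at 316, 268, 252 and 176 CPM in control mice 1 to 4. Treated mice 1 to 4 were at 408, 215, 362 and 519 CPM, so that treated mice 1, 3 and 4 exceeded every control mouse and treated mouse 2 was below all but control mouse 4. The means were 253 ± 58.1 and 376 ± 126 CPM (SD, n = 4 each), and the log2 fold change was 0.57 (standard error 0.27, interval -0.02 to 1.16, edgeR adjusted p = 0.657). It was 0.45 without control mouse 4 and 0.38 without treated mouse 4.

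Cdh5 (ENSMUSG00000031871, chr8:104101625-104144511, plus strand) encodes VE-cadherin, the adhesion protein of endothelial junctions. Control mice 1 to 4 had 691, 627, 488 and 168 CPM and treated mice 1 to 4 had 868, 489, 990 and 1075 CPM. It had the largest range of the 10 genes, from 168 to 1075 CPM, and treated mouse 2 was level with control mouse 3. The means of 493 ± 233 and 855 ± 259 CPM (SD, n = 4 each) gave the largest log2 fold change, 0.79 (standard error 0.40, interval -0.08 to 1.67, edgeR adjusted p = 0.657), which was 0.52 without control mouse 4.

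Pecam1 (ENSMUSG00000020717, chr11:106654217-106750628, minus strand) encodes CD31, an adhesion molecule of endothelial cells, platelets and leukocytes. Its level was 628, 612, 534 and 201 CPM in control mice 1 to 4 and 749, 469, 799 and 801 CPM in treated mice 1 to 4. In each group 3 mice were close together and the fourth, control mouse 4 or treated mouse 2, was far below them. The means were 494 ± 199 and 704 ± 159 CPM (SD, n = 4 each), and the log2 fold change was 0.51 (standard error 0.33, interval -0.22 to 1.24, edgeR adjusted p = 0.668), or 0.26 without control mouse 4.

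Vwf (ENSMUSG00000001930, chr6:125546774-125686679, plus strand), the gene of von Willebrand factor, which larger vessels store for clotting, was at 414, 416, 328 and 185 CPM in control mice 1 to 4. Treated mice 1 to 4 were at 440, 423, 565 and 599 CPM, all above the controls, although the lowest treated mouse was just above the highest control. The means were 336 ± 108 and 507 ± 88.2 CPM (SD, n = 4 each), and the log2 fold change was 0.59 (standard error 0.25, interval 0.03 to 1.16, unadjusted p = 0.0405 and adjusted p = 0.657 from edgeR). The exact permutation p of 0.0286 is the smallest that 4 against 4 mice allow. Without control mouse 4 the log2 fold change was 0.41 (interval -0.00 to 0.81).

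**Figure D2:**
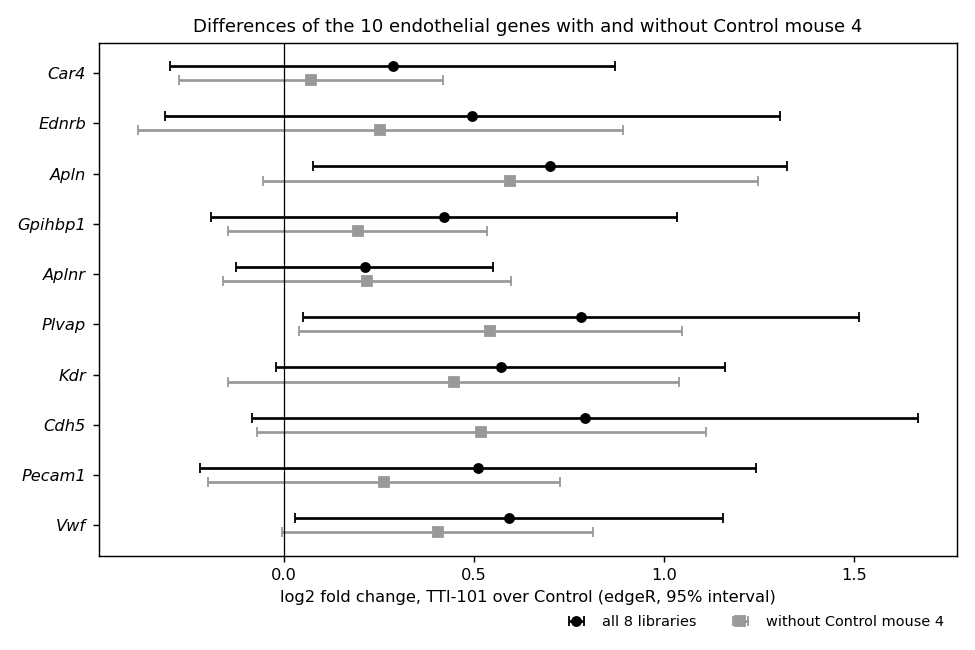
Log2 fold change of each gene, TTI-101 over control, with its 95% interval from edgeR (horizontal axis), for all 8 libraries (black circles) and without control mouse 4 (grey squares). All points lie above 0, and 9 of the 10 moved toward 0 without that mouse, Aplnr being the exception.

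To compare genes, levels were divided by the gene length given with the counts, which need not be the length of the transcripts present. The order of the genes thus depends on that length. Per kilobase, Plvap was the most abundant of the 10 genes in both groups. It was at 193 ± 77.9 CPM per kilobase in control and 332 ± 92.8 in TTI-101-treated lungs (SD, n = 4 each). Apln was the least abundant on this scale, at 9.13 ± 2.01 and 14.8 ± 5.72 CPM per kilobase. The control order was Plvap, Cdh5, Car4, Pecam1, Gpihbp1, Kdr, Vwf, Ednrb, Aplnr and Apln. Plvap exceeded Cdh5, and Pecam1 exceeded Gpihbp1, in 8 of 8 libraries. Car4 and Pecam1 did not separate, with Car4 higher in 4 of 8 libraries (3 control and 1 treated), and neither did Gpihbp1 and Kdr, with Gpihbp1 higher in 4 of 8. In the treated lungs the order of the means was the same except that Pecam1 stood above Car4. The apelin receptor gene exceeded the gene of its ligand in 4 of 4 control libraries and in 2 of 4 treated libraries, a difference that was not tested.

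**Figure D3:**
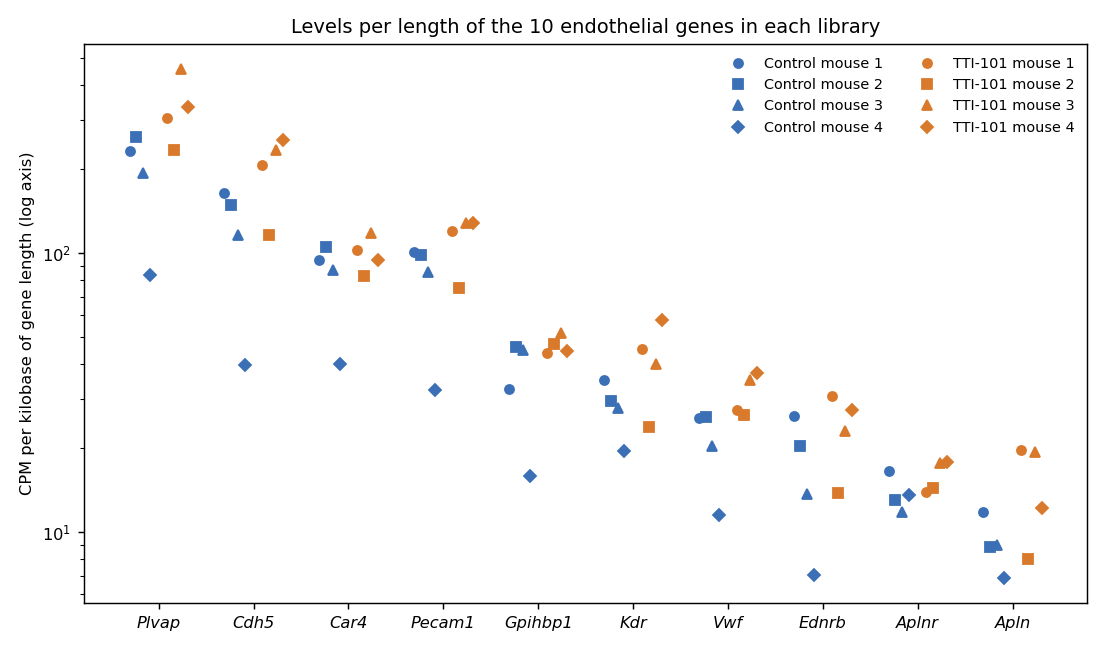
Level of each gene in CPM per kilobase of gene length (vertical log axis) in each library, ordered by the control mean, with 1 symbol per mouse. The order of the genes is similar in both groups, and control mouse 4 lies below the other 7 mice for 9 genes.

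How much of the difference between the groups rested on control mouse 4 varied between the genes. Without it, 25.0% of the log2 fold change remained for Car4, 46.0% for Gpihbp1, 51.3% for Ednrb and 51.7% for Pecam1. For Cdh5, Vwf, Plvap, Kdr and Apln 65.6% to 85.2% remained, and for Aplnr 103%. Control mouse 4 was the lowest of the 8 libraries for 9 of the 10 genes. Of all genes tested, 28.7% were lowest in that library and 24.8% were highest in it. Relative to the mean of the other 3 control mice, its level was 0.278-fold for Cdh5, 0.340-fold for Pecam1, 0.349-fold for Ednrb, 0.364-fold for Plvap, 0.387-fold for Gpihbp1, 0.419-fold for Car4 and 0.480-fold for Vwf. The deficit was smaller for Kdr at 0.632-fold and Apln at 0.697-fold, and Aplnr was at 0.985-fold. The genes of the apelin ligand and receptor were thus nearest to the other controls in this library, and the gene of VE-cadherin was farthest from them. The same mouse was also the lowest for 15 of 15 other pan-endothelial genes, 9 of 9 other general capillary genes, 8 of 9 other aerocyte genes and 9 of 9 endothelial transcription factors. It was low for other lung cells too, being the lowest for 7 of 7 fibroblast genes, 9 of 9 smooth muscle and pericyte genes and 6 of 8 alveolar type 1 cell genes, and it was the highest of the 8 for 7 of 8 alveolar type 2 cell genes and 7 of 7 ciliated cell genes. The part of tissue make-up in these values was not tested.

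To describe the 10 genes at a given amount of endothelial RNA, each was set against the mean log2 CPM of 15 other pan-endothelial genes in the same library. This removed most of the spread of Pecam1, whose SD over the 8 libraries was 0.65 as log2 CPM and 0.13 as a relative level, and of Plvap (0.72 and 0.20) and Car4 (0.48 and 0.14). It widened the spread of Aplnr (0.22 and 0.52), and the spread of Kdr was 0.51 before and 0.36 after and that of Apln 0.57 and 0.41. On this relative log2 scale Car4 was at -0.01, -0.00, -0.05 and 0.08 in control mice 1 to 4 and at -0.21, -0.10, -0.21 and -0.34 in treated mice 1 to 4. All treated mice thus lay below all control mice, the mean difference being -0.22. Of the other genes tested, 4.92% were apart in that direction. Plvap was at 1.31, 1.32, 1.12 and 1.16 in control mice 1 to 4 and at 1.37, 1.41, 1.75 and 1.49 in treated mice 1 to 4, a mean difference of 0.28 with all treated mice above all control mice, as for 0.134% of genes. The mean of the 15 reference genes was itself higher in treated lungs, at 7.82 log2 CPM against 7.23 in control lungs. A gene with equal CPM in both groups therefore lies lower in treated lungs on this scale. The shares of 4.92% and 0.134% are over all genes, not endothelial genes, and do not show how unusual the 2 genes are. The relative levels were not tested, and the 2 genes were singled out after their values were seen. The other 8 genes overlapped between the groups, with mean differences between -0.37 for Aplnr and 0.33 for Cdh5. The difference for Aplnr was -0.03 without control mouse 4, in which its relative level was -0.56 against -2.18 to -1.60 in the other 7 mice.

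Taken as classes, the aerocyte and general capillary genes did not part between the groups. The mean of the 3 aerocyte genes minus that of the 3 general capillary genes, in log2 CPM, was -0.81 ± 0.18 in control and -0.81 ± 0.34 in TTI-101-treated lungs (SD, n = 4 each), a difference of -0.01. Against the 15 other pan-endothelial genes, the difference between groups was -0.06 for the aerocyte genes and -0.05 for the general capillary genes, each smaller than the spread between mice. With control mouse 4 left out, these differences were -0.04, 0.01 and 0.06 in the same order, so that the direction of the last pair was not stable. The direction of the first was not stable either. It ran from -0.16 without treated mouse 1 to 0.12 without treated mouse 2.

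**Figure D4:**
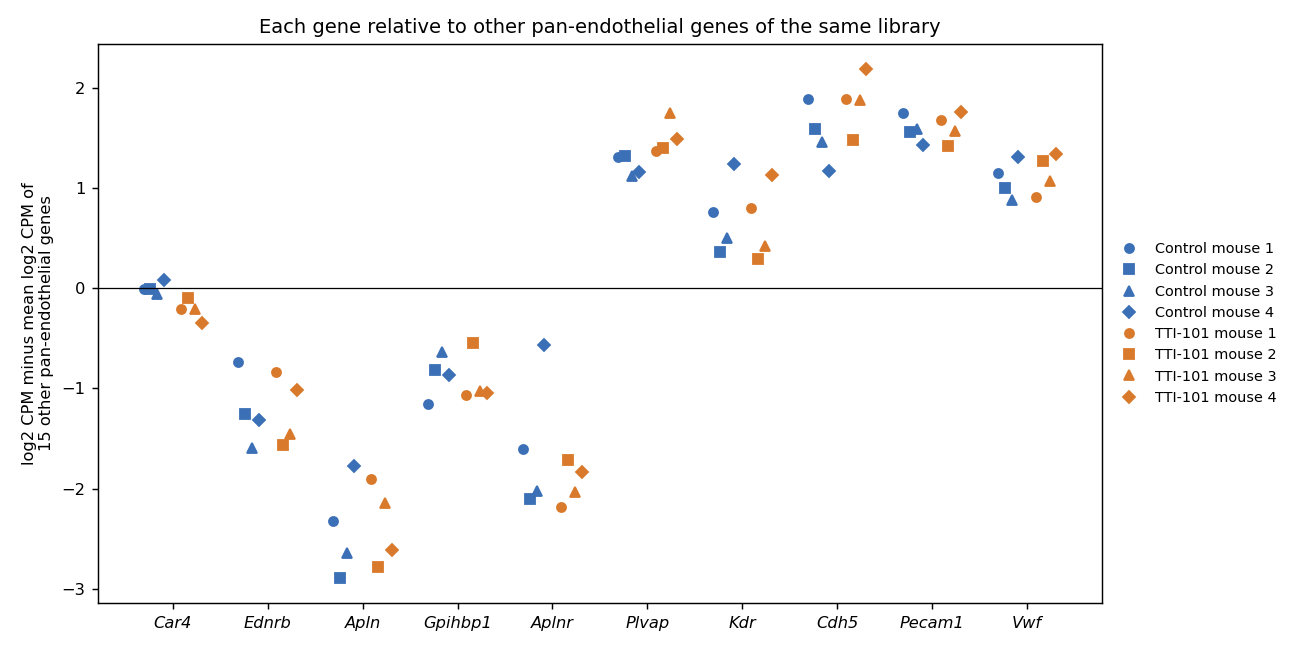
Log2 CPM of each gene minus the mean log2 CPM of 15 other pan-endothelial genes of the same library (vertical axis), with 1 symbol per mouse. Car4 lies lower and Plvap higher in the 4 treated mice than in the 4 control mice, and control mouse 4 stands out for Aplnr.

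Other genes of the lung vasculature were for the most part also higher in the treated lungs. The 9 other aerocyte genes, among them the transcription factor gene Tbx2, had a median log2 fold change of 0.48 (0.27 without control mouse 4), and the 9 other general capillary genes, among them the receptor genes Kit and Tek, a median of 0.52 (0.30). For the 15 other pan-endothelial genes the median was 0.52 (0.29), for 8 arterial genes 0.38 (0.23), for 8 venous genes 0.31 (0.14), for 8 lymphatic genes 0.35 (0.28) and for 9 endothelial transcription factors 0.50 (0.32). The venous median was 0.20 without treated mouse 1. In each of these 7 lists, 0 genes passed an adjusted p of 0.05. At an unadjusted p of 0.05 the numbers of higher genes were 1 of 9, 0 of 9, 1 of 15, 2 of 8, 1 of 8, 1 of 8 and 1 of 9, beside 3.02% of all genes, and the number of lower genes was 0 in each. Those past it were Cdkn2b, which encodes a cell cycle inhibitor (log2 fold change 0.51, standard error 0.23), the endomucin gene Emcn (0.49, standard error 0.22), the arterial connexin genes Gja5 (0.62, standard error 0.22) and Gja4 (0.59, standard error 0.26), the venous ephrin receptor gene Ephb4 (0.56, standard error 0.20), the scavenger receptor gene Stab1 (0.48, standard error 0.19) and Foxf1, a transcription factor gene needed for lung capillaries (0.78, standard error 0.33). Among general capillary genes the incretin receptor gene Glp1r had the largest difference, at 0.91 (standard error 0.49). The adjusted p from edgeR was 0.657 for each of these 8 genes. Without control mouse 4 their log2 fold changes ranged from 0.32 for Emcn to 0.70 for Glp1r.

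The ligands and partners of the 10 genes were read from lists of their pathways. Of the 10 VEGF ligands and receptors tested, 0 passed an unadjusted p of 0.05, and the median log2 fold change was 0.46, or 0.25 without control mouse 4. Vegfa, the main ligand of the Kdr receptor, was at 688 ± 167 CPM in control and 963 ± 172 CPM in treated lungs (SD, n = 4 each), and its log2 fold change was 0.49 (standard error 0.22, edgeR adjusted p = 0.657), and Flt1, a receptor that also binds it, had a log2 fold change of 0.46 (standard error 0.29, edgeR adjusted p = 0.663). Among 6 angiopoietin and Tie genes, Angpt2, a ligand released by activated endothelium, passed an unadjusted p of 0.05, with 12.5 ± 4.96 and 21.8 ± 8.33 CPM (SD, n = 4 each) and a log2 fold change of 0.80 (standard error 0.34, edgeR adjusted p = 0.657), and Tek, the gene of its receptor, had a log2 fold change of 0.57 (standard error 0.40, edgeR adjusted p = 0.686). With control mouse 4 left out, these log2 fold changes were 0.34 for Vegfa, 0.26 for Flt1, 0.63 for Angpt2 and 0.30 for Tek.

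In the endothelin group, of which 6 genes were tested, Ednra, the gene of the endothelin A receptor of smooth muscle, was past an unadjusted p of 0.05 at a log2 fold change of 0.57 (standard error 0.23, edgeR adjusted p = 0.657). The ligand gene Edn1 was at 25.3 ± 9.22 CPM in control and 41.1 ± 15.3 CPM in treated lungs (SD, n = 4 each), with a log2 fold change of 0.70 (standard error 0.32, edgeR adjusted p = 0.657), and Nos3, which encodes the endothelial nitric oxide synthase, had a log2 fold change of 0.39 (standard error 0.27, edgeR adjusted p = 0.682). With control mouse 4 left out, they were 0.44 for Ednra, 0.48 for Edn1 and 0.22 for Nos3. Lpl, the gene of the lipase that Gpihbp1 binds, had a log2 fold change of 0.18 (standard error 0.28, edgeR adjusted p = 0.847) and of -0.02 without control mouse 4. Of 7 tested genes in the lipoprotein lipase list, 0 passed an unadjusted p of 0.05. Apela, which encodes the other ligand of the apelin receptor, did not pass the filter on low counts.

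Of the 8 tip cell and sprouting genes, Adm and Angpt2 were past an unadjusted p of 0.05. Adm, which encodes the vasodilator peptide adrenomedullin, was at 4.89 ± 1.72 CPM in control and 11.1 ± 4.05 CPM in treated lungs (SD, n = 4 each), with all treated mice above all control mice and a log2 fold change of 1.18 (standard error 0.32, edgeR adjusted p = 0.657). Without control mouse 4 it was 1.02. Esm1, a tip cell gene, had a log2 fold change of -0.31 (standard error 0.28, edgeR adjusted p = 0.749), and it was highest in control mouse 4, without which the log2 fold change was -0.04. Among 9 genes of Weibel-Palade bodies and coagulation, Vwf and Plat were past an unadjusted p of 0.05, and Plat, the gene of tissue plasminogen activator, had a log2 fold change of 0.34 (standard error 0.14, edgeR adjusted p = 0.657), or 0.30 without control mouse 4.

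Among markers of other cell types, 0 genes of any list passed an adjusted p of 0.05 in edgeR, as for all genes. At an unadjusted p of 0.05, 4 of 4 adipocyte, 4 of 5 red blood cell and 3 of 10 immune genes were higher. Lower at that threshold were 5 of 6 proliferation, 3 of 7 ciliated and 1 of 5 club cell genes. Past it were also 1 of 9 smooth muscle and pericyte genes, higher, and 1 of 7 platelet genes in each direction. The other cell type lists had 0, and over all genes the shares were 3.02% higher and 3.58% lower. The summed level of 10 immune cell genes ranged from 143 to 483 CPM in control and from 282 to 628 CPM in treated lungs, with a median log2 fold change of 0.67, which was 0.42 without control mouse 4, 0.43 without treated mouse 4 and 1.17 without control mouse 1. Fibroblast genes had a median of 0.30 over 7 genes, smooth muscle and pericyte genes 0.29 over 9 and alveolar type 1 cell genes 0.40 over 8, and these became 0.16, 0.08 and 0.17 without control mouse 4. Without control mouse 2 the medians of the fibroblast and smooth muscle lists were 0.51 and 0.48, and these were 0.18 without treated mouse 3 for the former and 0.45 without control mouse 3 for the latter. Alveolar type 2 cell genes had a median of -0.40 over 8 genes, club cell genes -0.58 over 5, ciliated cell genes -0.70 over 7 and proliferation genes -0.78 over 6, which became -0.20, -0.45, -0.38 and -0.58 without control mouse 4. Without treated mouse 2 the club and ciliated cell medians were -0.93 and -1.14. The median was 0.69 over 4 mesothelial genes, 0.80 over 7 pulmonary vein cardiomyocyte genes, whose summed level was 79.7 CPM in control mouse 4 and 404 to 865 CPM in the other control mice, and 1.87 over 4 adipocyte genes. Without control mouse 4 these medians were 0.34, 0.42 and 1.53. The mesothelial median was 0.32 without treated mouse 3 and 1.08 without control mouse 2, and that of the cardiomyocyte genes was 0.26 without treated mouse 2 and 1.21 without control mouse 2. Platelets, which also hold Vwf and Pecam1 products, had summed levels of 33.3 to 66.6 CPM in control and 36.8 to 74.5 CPM in treated lungs over 7 genes. The median log2 fold change of these 7 genes was 0.54, with 6 higher and 1 lower. This median was 0.45 without control mouse 4, 0.34 without treated mouse 3 and 0.86 without control mouse 3. Pf4 was lower at a log2 fold change of -0.85 (standard error 0.28, edgeR adjusted p = 0.657) and Itga2b was at 0.71 (standard error 0.28, edgeR adjusted p = 0.657), or -0.64 and 0.58 without control mouse 4. Red blood cell genes had a median of 2.50 over 5 genes, or 3.12 without that mouse, with summed levels of 58.0 to 264 CPM in control and 205 to 1586 CPM in treated lungs. The part of these cells in the endothelial values was not tested.

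**Figure D5:**
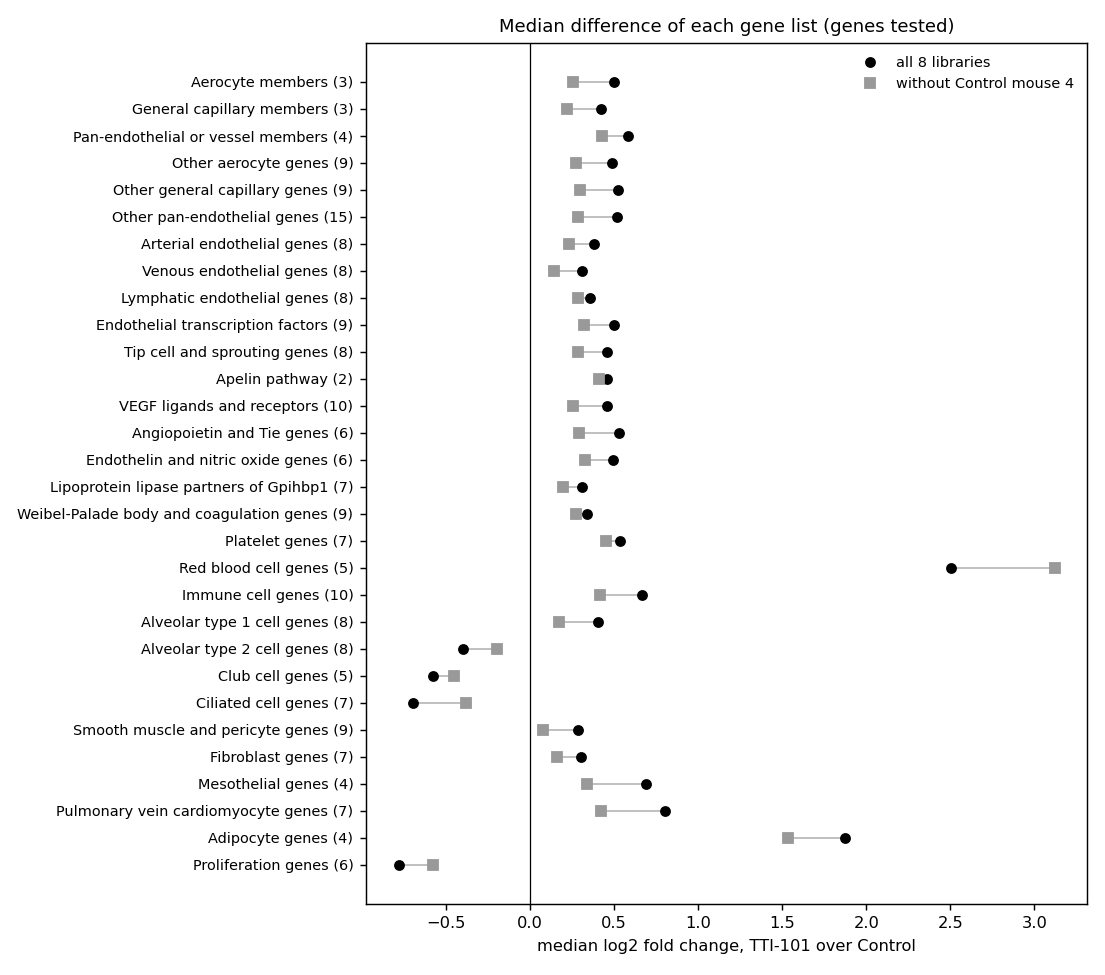
Median log2 fold change, TTI-101 over control, of each gene list (horizontal axis; the number of genes tested is in brackets), for all 8 libraries (black circles) and without control mouse 4 (grey squares). The lists of endothelial genes lie between 0.31 and 0.58 with all libraries and between 0.14 and 0.43 without that mouse, while the alveolar type 2, club, ciliated and proliferation lists lie below 0.

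The genes whose pattern over the 8 libraries was most like that of Car4, Gpihbp1 and Cdh5 were found by the root mean square distance of mean-centred log2 CPM, among 12591 other genes with a mean count of at least 100. For Car4 these were Coro2b, Ism1 and Nkd1, at distances of 0.0948, 0.0990 and 0.0991, beside a median of 0.506 over all those genes. For Gpihbp1 they were Sult5a1, Plcd1 and Grap, at 0.0791, 0.0806 and 0.0906 (median 0.571). For Cdh5 they were the water channel gene Aqp1, Adgre5 and Acvrl1, the gene of a BMP receptor of endothelium, at 0.114, 0.129 and 0.129 (median 0.826). The adjusted p-values from edgeR for these 9 genes ranged from 0.657 to 0.819.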

How the data were processed

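Whole-lung poly(A) RNA of 8 CC-LR mice, 4 per group, was sequenced as paired ends from stranded libraries by Novogene. The authors deposited whole-number counts per Ensembl gene with no normalization. The submitters' processing notes name STAR, DESeq2 and mm10 with no versions, and the counting tool and its strand setting are not given in the sources used here. All 10 genes have the same coordinates in GENCODE M21, on GRCm38.

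The test was that of edgeR 4.0.16 under R 4.3.3 (filterByExpr with a minimum count of 10, TMM, robust quasi-likelihood F-test, Benjamini-Hochberg adjustment over 17138 genes, no covariate). Standard errors were derived from the F values, and log2 CPM used a prior count of 2. For single genes an exact permutation test (two-sided) was added. DESeq2 1.42.0, limma-voom 3.58.1, other scalings, filters and covariates, and each library left out were alternatives. Recovery of known changes was tested on simulated data. Named genes were the 10 members, list genes with an unadjusted p under 0.05 or the largest difference, pathway partners and nearest patterns. The members and lists were chosen with earlier results of these data known. Total counts of 16075855 to 26873509 per library gave each of the 10 genes at least 339 counts in every library.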

Additional observations from a re-analysis of the deposited data

Results flagged for a closer look

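In each group of 4 mice, the distance of the most extreme mouse from its nearest neighbour was compared, as a share of the group's range, with Dixon's 95% critical value for 4 values, for the 10 genes, the list means, the 3 relative class levels and 3 measures of the libraries. It was exceeded in 13 of 90 groups, where chance gives about 4.5.

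For Pecam1, the share was 0.857 for control mouse 4, at a log2 CPM of 7.65 against 9.06 to 9.29 in the other controls, and 0.873 for TTI-101-treated mouse 2, at 8.87 against 9.55 to 9.65. Control mouse 4 was also apart for the mean of the 15 other pan-endothelial genes (0.848), endothelial transcription factors (0.845), alveolar type 1 cell genes (0.845), the percentage of mitochondrial counts (0.867) and the general capillary genes relative to other pan-endothelial genes (0.883), the last at -0.09 against -0.53 to -0.48.

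TTI-101-treated mouse 2 was apart for immune cell genes (0.921) and alveolar type 1 cell genes (0.873), where it was low, and for ciliated cell genes (0.936), where it was high. Control mouse 1 was apart for club cell genes (0.854) and for total counts (0.83), and TTI-101-treated mouse 3 for mesothelial genes (0.903).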

How the results depend on the processing

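The log2 fold changes of the 10 genes stayed above 0, and none passed an adjusted p of 0.05, under every alternative run, with the lowest adjusted p, 0.28, for Apln and Kdr without TTI-101-treated mouse 2 in edgeR. Over all genes, the number at an adjusted p under 0.05 was 4 with DESeq2 and 1 with Xist as a covariate for sex, and 0 to 1 with each mouse left out. The number at an unadjusted p under 0.05 was 1132, or 1849 with no filter on low counts. It was 1689 with DESeq2, 846 with Xist as a covariate, and 422 to 2498 with each mouse left out. Of the 10 genes, the number at that threshold was 3, 5 with DESeq2, 1 with Xist as a covariate, and 0 to 5 with each mouse left out. Their median log2 fold change ranged from 0.34 without control mouse 4 to 0.70 without control mouse 1, and the cause was not tested.

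The groups share replicate numbers in the labels, which do not say that these are pairs, and the main fit did not treat them as such. Deviations from the group means correlated at 0.39, 0.08, 0.16 and 0.07 for numbers 1 to 4. Between mice of different numbers the correlations ran from -0.42 to 0.17. Total counts were highest for number 1 in both groups, at 26873509 in control and 25920509 in treated mice. Whether mice of the same number were handled together was not tested. With a replicate block, 2 of the 10 genes and 1298 of all genes were at an unadjusted p under 0.05, and 0 genes at an adjusted p under 0.05 in edgeR. With 4 mice per group, the 95% intervals of the 10 log2 fold changes reached from -0.31 to 1.67.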
